A study of Mus musculus with 6 samples.

Results

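Bnip3 and other genes of the cellular response to low oxygen were followed in mouse pro-B cells in which tamoxifen deletes Foxo1. The set holds 10 genes, Bnip3, Bnip3l, Egln1, Egln3, Pdk1, Vegfa, Ankrd37, Ndrg1, P4ha1 and Kdm3a, of 19937 genes that have a probe set with a single symbol in the array platform's table. All 10 were measured. The probe set of each gene was chosen by its mean intensity over the 6 arrays, the brightest where there were several, and the genes were selected with the difference in Bnip3 between the groups already known. Gene expression was measured on microarrays in 3 samples kept for 2 days in 1 µM tamoxifen and in 3 untreated samples. All 6 came from C57/BL6 pro-B cells that the v-Abl oncogene had transformed, and had the genotype Foxo1f/f; ERCre, so every cell carried loxP-flanked Foxo1 alleles and a Cre recombinase that tamoxifen activates through an oestrogen receptor fusion. No tamoxifen-treated cells that kept Foxo1 were analysed here, so tamoxifen itself and the deletion cannot be told apart. The labels do not state whether replicates were separate cultures, and the spread that p-values rest on may be technical.

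Cells sense oxygen through prolyl hydroxylases of the EGLN family, which use oxygen to mark the alpha subunits of the hypoxia-inducible factor (HIF) for destruction by the VHL ubiquitin ligase. When oxygen is low the alpha subunit persists, pairs with ARNT and binds a short core motif near genes of glucose use, blood vessel growth, collagen modification and mitochondrial turnover. Bnip3 and Bnip3l (also called Nix) encode related proteins of the outer mitochondrial membrane that recruit the autophagy machinery and so serve as receptors for the removal of mitochondria. Bnip3 is also known as a target of the FOXO factors, mainly from work on mouse skeletal muscle.

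The promoters of the genes are shown because HIF acts through its core motif, which can then be read in the sequence. RefSeq promoter windows (GRCm38.p6) were found for 8 of the 10 genes. The entries for Bnip3l and Ndrg1 are missing. Where a gene had several windows the most upstream start was used, and the 250 bases before the start were searched on both strands. The HIF core was searched as ACGTG and GCGTG, which overlap when 1 strand's match runs into the other's, and the FOXO motif as GTAAACA. The 250 bases are printed for Bnip3, the gene with the largest difference in the set, for P4ha1, the next gene downward, and for Vegfa, the gene with the largest positive difference. Capitals mark HIF core matches on either strand. The windows are chr7:138909507-138909756 on the minus strand for Bnip3, chr10:59323046-59323295 on the plus strand for P4ha1 and chr17:46032378-46032627 on the minus strand for Vegfa.
Bnip3: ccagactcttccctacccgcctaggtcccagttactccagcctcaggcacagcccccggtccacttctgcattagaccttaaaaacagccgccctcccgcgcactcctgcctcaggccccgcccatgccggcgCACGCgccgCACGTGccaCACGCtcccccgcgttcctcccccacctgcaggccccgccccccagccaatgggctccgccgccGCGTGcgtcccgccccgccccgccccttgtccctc
P4ha1: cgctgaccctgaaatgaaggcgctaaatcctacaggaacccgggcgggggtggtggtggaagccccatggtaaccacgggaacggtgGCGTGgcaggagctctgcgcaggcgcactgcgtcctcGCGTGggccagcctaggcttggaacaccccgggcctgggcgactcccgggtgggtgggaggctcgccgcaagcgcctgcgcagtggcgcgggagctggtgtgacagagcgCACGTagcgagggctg
Vegfa: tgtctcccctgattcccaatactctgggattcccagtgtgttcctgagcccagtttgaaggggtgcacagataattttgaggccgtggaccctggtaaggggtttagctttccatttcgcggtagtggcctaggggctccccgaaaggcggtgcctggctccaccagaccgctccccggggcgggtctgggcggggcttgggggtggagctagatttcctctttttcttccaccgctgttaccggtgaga

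The Bnip3 window held 5 matches to the HIF core, of which 2 overlap in a CACGTG palindrome. P4ha1 held 3 and Vegfa 0. Of the others, Ankrd37 held 4, Egln1 2, and Egln3, Pdk1 and Kdm3a 1 each. At least 1 match was thus present in 7 of 8 windows (87.5%), against 38.6% of the windows of all 27025 genes. The windows of the set were rich in G and C, with a median of 65.8% against 52% in all windows, and the part of base composition in the motif count was not tested. GTAAACA was found in 0 of the 8 windows and in 3.06% of all windows. These matches are a description of the letters in the windows, not of binding.

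The arrays were of similar scale, with medians of 100.9 to 109.1, and precision is limited by their number. Foxo1 measured 116, 151 and 134 in tamoxifen samples 1, 2 and 3, against 806, 624 and 512 in untreated samples 1, 2 and 3. Its log2 fold change of -2.13 ± 0.15 (SE) passed, at a limma adjusted p = 0.0178. Foxo1 kept its direction in all 14 alternatives but lost its call in 7 of them: with a common median (adjusted p = 0.0500251), under a replicate block (0.0936) and without any 1 array other than untreated 1 (0.0843 to 0.156). The sources used here do not say whether its probe set lies in the deleted part. Of the 9 pro-B markers 8 had a single-symbol probe set, each at or above the median probe set, with summed intensities of 20216 to 22253 in tamoxifen samples and 17668 to 20096 in untreated samples. At an unadjusted p under 0.05, 5 of these markers were higher in tamoxifen samples (Cd79b, Pax5, Cd79a, Igll1 and Vpreb1) and 1 was lower (Ebf1). None passed after adjustment over all probe sets, but with probe sets averaged per gene Cd79b (0.52, limma adjusted p = 0.0273) and Ebf1 (-0.51, limma adjusted p = 0.0366) did. Each has 1 probe set, so nothing was averaged for them, and that fit differs in testing fewer features. The part of these markers in the other results was not tested. Markers of T, myeloid, erythroid, and stromal and endothelial cells had 0 genes at an unadjusted p under 0.05 in any of the 4 lists. The summed markers lay between 365 and 431 (T), 646 and 648 (myeloid), 339 and 385 (erythroid) and 1111 and 1345 (stromal and endothelial) in tamoxifen samples. In untreated samples the same sums lay between 365 and 459, 611 and 682, 380 and 391, and 999 and 1296. In such bulk samples fewer cells of a type and less RNA per cell cannot be told apart.

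Bnip3 stood apart from the rest of the set. It was lower in every tamoxifen sample, Vegfa was higher in every one, P4ha1 was slightly lower, and the other 7 genes overlapped between the groups. In the limma fit over all 34760 probe sets, 0 of the 10 genes passed an adjusted p of 0.05, where 0.0575% of all probe sets did (20). At an unadjusted p under 0.05 there were 3 of the 10, Bnip3, P4ha1 and Vegfa, where the share over all probe sets was 5.11%. The same 3 had groups that did not overlap, where 9.89% of all probe sets and 11.2% of all genes had such groups. The median log2 fold change of the 10 was 0.001 (5 positive, 5 negative), against -0.01 over all genes. Because the genes were chosen with this comparison known, these values describe the set and support nothing further.

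**Figure D1:**
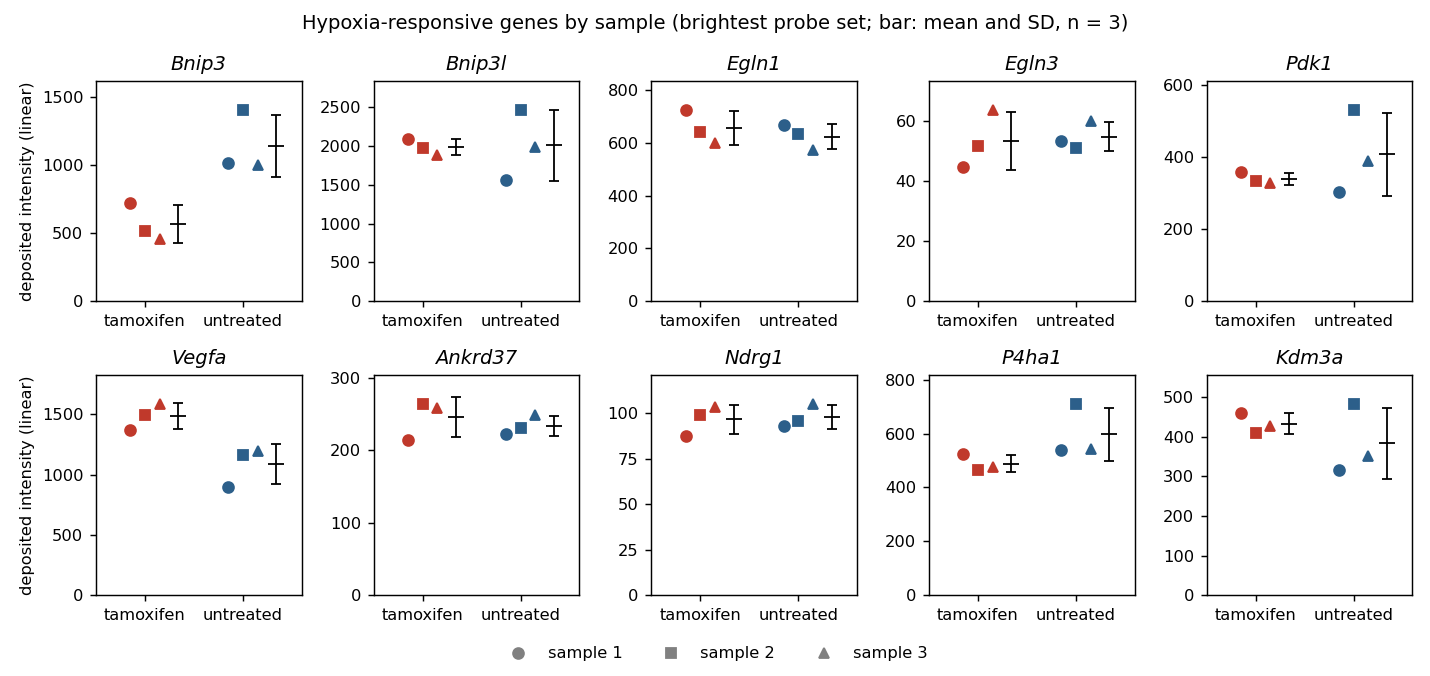
Deposited linear intensity of the 10 genes in each sample (brightest probe set), with tamoxifen samples in red, untreated samples in blue, a marker shape for each sample number, and bars for the mean and SD (n = 3). Bnip3 lies at 460 to 724 in tamoxifen samples and at 999 to 1407 in untreated samples, while Bnip3l, Pdk1 and Kdm3a are spread widely in untreated samples and narrowly after tamoxifen.

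Among the mitophagy receptors, Bnip3 had intensities of 724, 520 and 460 in tamoxifen samples 1, 2 and 3, against 1017, 1407 and 999 in untreated samples 1, 2 and 3. The highest tamoxifen value lay below the lowest untreated value, and the mean was 568 ± 138 after tamoxifen and 1141 ± 230 in untreated cells (SD, n = 3 each). The log2 fold change was -1.01 ± 0.17 (SE; 95% interval -1.42 to -0.61), a ratio of 0.495, with a limma adjusted p = 0.227. A dimmer probe set of Bnip3, paired with the same accessions, measured 622, 529 and 469 in tamoxifen samples, against 935, 1311 and 845 in untreated samples. Its log2 fold change was -0.91 ± 0.15 (SE), so the probe sets gave a similar difference. Averaged into 1 value per gene, they gave -0.96 ± 0.14 (SE), and with 19937 genes tested in place of 34760 probe sets Bnip3 passed, with a limma adjusted p = 0.0406. That fit called 73 genes (0.366%), and over all 14 alternatives the adjusted p of Bnip3 ran from 0.0406 to 0.774.

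Bnip3l, the close relative of Bnip3, had overlapping groups. Its intensity was 2093, 1969 and 1888 in tamoxifen samples 1, 2 and 3, against 1561, 2465 and 1989 in untreated samples 1, 2 and 3. The tamoxifen values lay inside the range of the untreated values, and the log2 fold change was 0.01 ± 0.17 (SE), with a 95% interval of -0.39 to 0.40. A dimmer probe set with the same accessions measured 932, 687 and 633 after tamoxifen, against 591, 1319 and 736 in untreated samples, or -0.19 ± 0.28 (SE) on the log2 scale. RefSeq lists a pseudogene, Bnip3l-ps, so which copy each Bnip3l probe set measures is uncertain. Pseudogenes were searched only by names of this form, so the same doubt is not settled for the probe sets of Bnip3. The difference between the fold changes of Bnip3 and Bnip3l was not tested, since Bnip3 was chosen for its size.

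**Figure D2:**
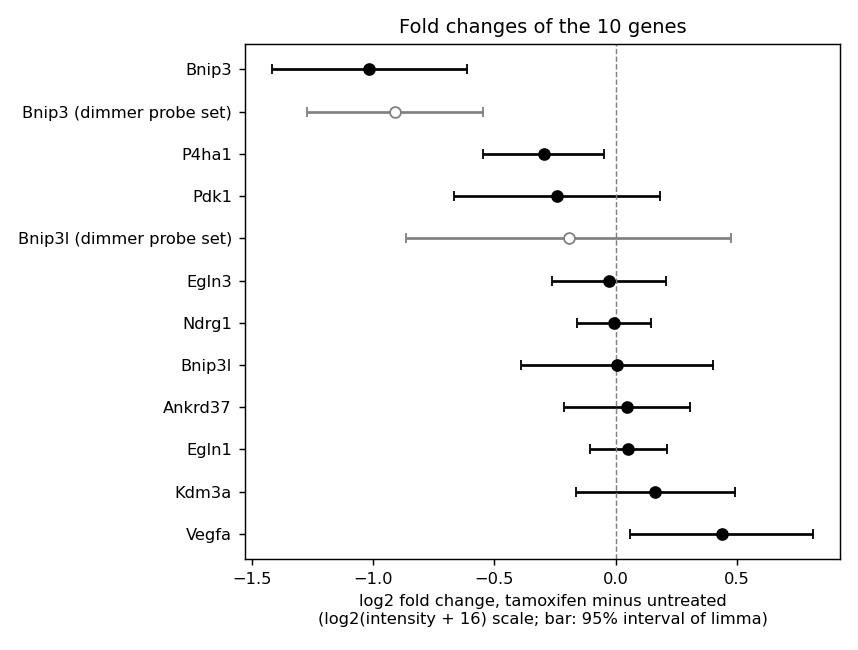
Log2 fold change (tamoxifen minus untreated, log2(intensity + 16) scale) of the 10 genes, with 95% intervals from limma; open circles are the dimmer probe sets of Bnip3 and Bnip3l. Both Bnip3 probe sets lie near -1 (-1.01 and -0.91), P4ha1 at -0.30 and Vegfa at 0.44 have intervals that leave out 0, and the intervals of the other 7 genes include it.

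The oxygen sensors differed little. Egln1, the main prolyl hydroxylase that marks HIF alpha subunits, measured 724, 641 and 599 in tamoxifen samples, against 666, 632 and 572 in untreated samples, with overlapping groups. Its log2 fold change was 0.05 ± 0.07 (SE), with a 95% interval of -0.10 to 0.21. Egln3, a related hydroxylase that HIF itself induces, was dim, at 44.5 to 63.6 in tamoxifen samples and 50.9 to 59.9 in untreated samples, with -0.03 ± 0.10 (SE). Egln3 and Ndrg1 were the members below the median probe set, which limits what the arrays can show of them.

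Of the enzymes, Pdk1, a kinase that shuts pyruvate out of the citric acid cycle by inhibiting pyruvate dehydrogenase, measured 358, 334 and 327 in tamoxifen samples, against 302, 531 and 390 in untreated samples. The log2 fold change of -0.24 ± 0.18 (SE) was within the spread of the untreated samples. P4ha1, the catalytic subunit of a collagen prolyl hydroxylase, measured 524, 465 and 474 after tamoxifen, against 539, 711 and 544 in untreated samples. The groups did not overlap, and on the centred log2 scale the nearest samples were at -0.12 (tamoxifen 1) and -0.02 (untreated 1). The log2 fold change of -0.30 ± 0.10 (SE) had a limma adjusted p = 0.862. Kdm3a, a histone H3 demethylase, measured 461, 409 and 428 in tamoxifen samples, against 316, 484 and 350 in untreated samples, a log2 fold change of 0.16 ± 0.14 (SE).

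Vegfa, the growth factor that drives blood vessel sprouting, went the other way from Bnip3. It measured 1371, 1493 and 1590 in tamoxifen samples 1, 2 and 3, against 896, 1165 and 1197 in untreated samples 1, 2 and 3. Every tamoxifen value was above every untreated value, with means of 1485 ± 109 and 1086 ± 165 (SD, n = 3 each) in tamoxifen and untreated cells. On the centred log2 scale that was fitted the groups all but touched, at 0.0123 in tamoxifen sample 1 and 0.0115 in untreated sample 3. The log2 fold change of 0.44 ± 0.16 (SE) had a limma adjusted p = 0.882. Ankrd37, an ankyrin-repeat protein induced by HIF, measured 215 to 265 in tamoxifen samples and 222 to 249 in untreated samples, a log2 fold change of 0.05 ± 0.11 (SE). Ndrg1, a stress-induced protein, measured 87.7 to 103 in tamoxifen samples and 93.1 to 105 in untreated samples, with a log2 fold change of -0.005 ± 0.06 (SE).

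The untreated samples differed among themselves in several of these genes, with sample 1 often the lowest and sample 2 often the highest. Of the 10 genes, 5 had their highest untreated value in sample 2 (Bnip3, Bnip3l, Pdk1, P4ha1 and Kdm3a), where 21.2% of all genes did. On the log2 scale, sample 2 exceeded the mean of untreated samples 1 and 3 by 0.52 for Pdk1, 0.44 for Bnip3l, 0.43 for Kdm3a, 0.41 for Bnip3 and 0.32 for P4ha1. Over all genes the median of this difference was -0.05. A larger value was seen in 0.381% of all genes for Pdk1, 0.727% for Bnip3l, 0.803% for Kdm3a, 0.963% for Bnip3 and 2.10% for P4ha1. Egln1, Egln3, Ankrd37 and Ndrg1 did not share this, with differences of -0.11 to -0.03, and Vegfa measured 0.10. At the other end, on the normalised log2 scale, 8 of the 10 genes had their lowest untreated value in sample 1. All but Egln1 and Egln3 did so, against 24.1% of all genes. For Bnip3 this depended on the scale, since its deposited intensity was 999 in untreated sample 3 and 1017 in untreated sample 1. The pattern was noticed in these data, so it is given with no test.

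After tamoxifen the same genes, apart from Bnip3, were nearly level between samples in their brightest probe sets. On the log2 scale the SD of Pdk1 was 0.02 over the 3 tamoxifen samples and 0.37 over the 3 untreated samples. It was 0.03 and 0.34 for Bnip3l, 0.03 and 0.28 for Kdm3a, and 0.03 and 0.19 for P4ha1 in tamoxifen and untreated samples. The dimmer probe set of Bnip3l was not level after tamoxifen, with an SD of 0.21, against 0.57 in untreated samples. The median gene had an SD of 0.08 in tamoxifen samples and 0.10 in untreated samples. The brightest probe set of Bnip3 varied alike in tamoxifen and untreated samples, with an SD of 0.26 and 0.24. Its dimmer probe set had 0.13 in tamoxifen samples and 0.28 in untreated samples. Over the whole set, 5 of 10 genes varied more in untreated samples, against 57.0% of all genes.

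**Figure D3:**
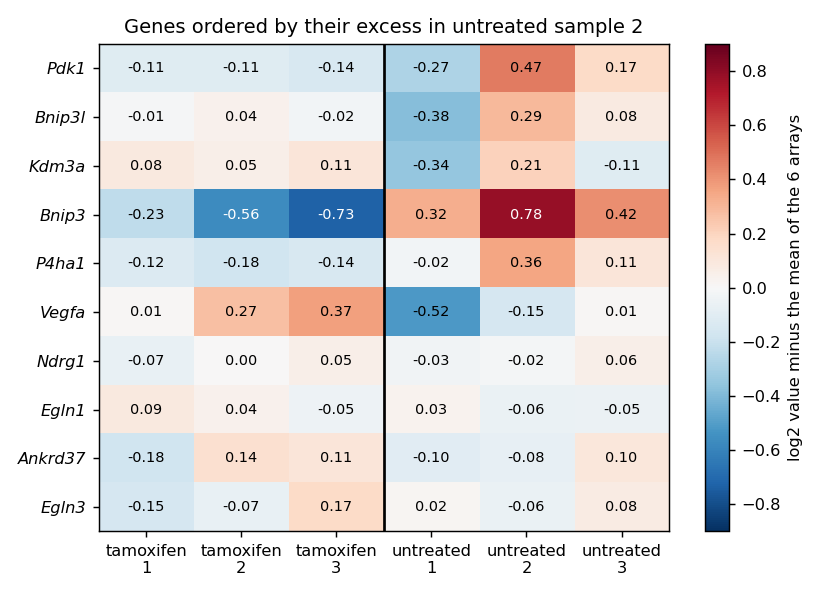
Log2 value of each gene in each sample minus that gene's mean over the 6 arrays, with tamoxifen samples left of the line and genes ordered from top to bottom by the excess of untreated sample 2 over untreated samples 1 and 3. The top 5 rows are highest among untreated samples in sample 2, and of these Bnip3 alone is below its mean in every tamoxifen sample and above it in every untreated sample.

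Since untreated samples 1 and 2 lay at the ends of this spread, each value was also taken without either. Without sample 2 the log2 fold change of Bnip3 was -0.88, with a limma adjusted p = 0.406. That of P4ha1 was -0.19 and that of Pdk1 -0.07, both nearer to 0, whereas Kdm3a was at 0.31, Bnip3l at 0.16 and Vegfa at 0.47. Without sample 1 Bnip3 was at -1.10, with a limma adjusted p = 0.284. P4ha1 (-0.38), Pdk1 (-0.44), Kdm3a (0.03), Bnip3l (-0.18) and Vegfa (0.29) then, like Bnip3, lay below their values from all arrays. Without sample 2 these genes and Bnip3 had all lain above those values. The difference in Bnip3 thus kept most of its size without either sample, while those of Pdk1, Kdm3a, Bnip3l, P4ha1 and Vegfa, none of them called, depended on which was left out.

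The 5 genes whose pattern lay nearest to that of Bnip3 were taken by the root mean square difference of centred log2 values over the 6 arrays, among 10636 genes at or above the median probe set, with RIKEN and clone style names passed over. They were Nlrp3, an inflammasome sensor, at 0.18, Ptger4, a prostaglandin E2 receptor, at 0.21, Ift43, a part of the ciliary transport machinery, at 0.22, Rgl1, an exchange factor for Ral GTPases, at 0.22, and Car2, a carbonic anhydrase, at 0.24. Of these 5, Ift43 (limma adjusted p = 0.0424), Rgl1 (0.0331) and Car2 (0.0279) passed the threshold, which Bnip3 did not. Over all probe sets 0.0575% passed. The distance takes in the gap between the groups, so genes near Bnip3 were lower in tamoxifen samples by selection. Their calls therefore describe the selection and support nothing further. Nlrp3 measured 85.9, 87.1 and 93.9 in tamoxifen samples, against 150, 206 and 160 in untreated samples, and like Bnip3 was highest in untreated sample 2. Within the set P4ha1 was the nearest to Bnip3 (0.39, rank 95 of 10636), then Pdk1 (0.42, rank 188). Bnip3l (0.54) ranked 3942 and Vegfa (0.79) ranked 10525, near the far end.

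Around the 10 genes, the HIF machinery itself gave no calls. Of 15 oxygen sensing genes and HIF subunits limma called 0, 0 had an unadjusted p under 0.05, and the median log2 fold change was -0.04. Hif1a, the main inducible alpha subunit, measured 987, 1001 and 958 in tamoxifen samples, against 877, 1035 and 955 in untreated samples, with overlapping groups. Its log2 fold change was 0.03 ± 0.09 (SE). The members with the largest differences were Vhl, which recognises hydroxylated HIF (0.17), and Rbx1 (-0.16) and Cul2 (-0.12), parts of the same ligase.

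Genes of glucose uptake and glycolysis that HIF induces leaned downward. Of 19 measured limma called 0 and 6 had an unadjusted p under 0.05. Of these 5 were lower in tamoxifen samples, where 2.14% of all probe sets were lower at that threshold. In total, 14 of 19 were negative, with a median of -0.16, where 55.5% of all genes were negative. The triose phosphate isomerase Tpi1 measured 1085, 897 and 902 in tamoxifen samples, against 1453, 1477 and 1038 in untreated samples, or -0.45 ± 0.11 (SE) on the log2 scale (limma adjusted p = 0.555). The hexokinase Hk2 gave -0.36 and the glucose transporter Slc2a1 -0.31.

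The other HIF targets were mixed, with 0 of 25 called, 11 positive and 14 negative, and a median of -0.02. Bhlhe41, a transcriptional repressor, was higher, at 944, 778 and 740 in tamoxifen samples, against 533, 585 and 523 in untreated samples. Its log2 fold change of 0.55 ± 0.08 (SE) missed the threshold (limma adjusted p = 0.132). In the fit with probe sets averaged per gene it passed (limma adjusted p = 0.0256). Bhlhe41 has 1 probe set, so nothing was averaged for it, and only the features tested and the spread shared between them differed. Ero1a, an oxidase of the endoplasmic reticulum, measured 1017, 1070 and 1063 in tamoxifen samples, against 1055, 2015 and 1634 in untreated samples. Like Pdk1 and Bnip3l it was highest in untreated sample 2, and its SD on the log2 scale was 0.12 in tamoxifen samples and 0.49 in untreated samples. Its groups overlapped (-0.53 ± 0.23, SE). Fam162a, a mitochondrial protein, gave -0.29.

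Partners of Bnip3 in mitophagy gave no calls either. Of 15 measured receptors, ATG8 proteins and binding partners limma called 0, 1 had an unadjusted p under 0.05, and the median was 0.04 (9 positive, 6 negative). The ATG8 protein Gabarap, which binds such receptors, measured 1936, 1437 and 1553 in tamoxifen samples, against 1561, 1286 and 1097 in untreated samples, a log2 fold change of 0.31 ± 0.12 (SE). Bcl2l1, a survival protein of the BCL2 family, gave 0.35 and Gabarapl1 -0.25. The groups of Gabarap, Bcl2l1 and Gabarapl1 all overlapped.

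Among 9 genes of pyruvate dehydrogenase and its regulators limma called 0, and the median was -0.10. Pdp1, the phosphatase that reverses the action of Pdk1, measured 404, 412 and 461 in tamoxifen samples, against 576, 654 and 580.5 in untreated samples. The groups did not overlap, and the log2 fold change of -0.50 ± 0.10 (SE) had a limma adjusted p = 0.34. Pdhb, an enzyme subunit, gave -0.19 and Dlat -0.11. Of 13 relatives of the set limma called 0, with a median of 0.01. Vegfc, a growth factor of lymphatic vessels, gave -0.24 and Vegfb -0.19. Pgf (0.21 ± 0.16, SE) and Vegfd (0.04 ± 0.08, SE) of the same family had the sign of Vegfa. Both were below the median probe set, and their 95% intervals, like that of Vegfb, included 0. Kdm3b gave 0.11.

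The count of genes highest in untreated sample 2 differed between these lists. It was 10 of 25 other HIF targets, 9 of 19 glycolysis genes, 6 of 15 oxygen sensing genes and 4 of 9 pyruvate dehydrogenase genes. It was 3 of 15 mitophagy genes and 1 of 13 relatives, where the share over all genes was 21.2%. These small counts were taken on the normalised log2 scale and include genes below the median probe set. The difference between lists was not tested.

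**Figure D4:**
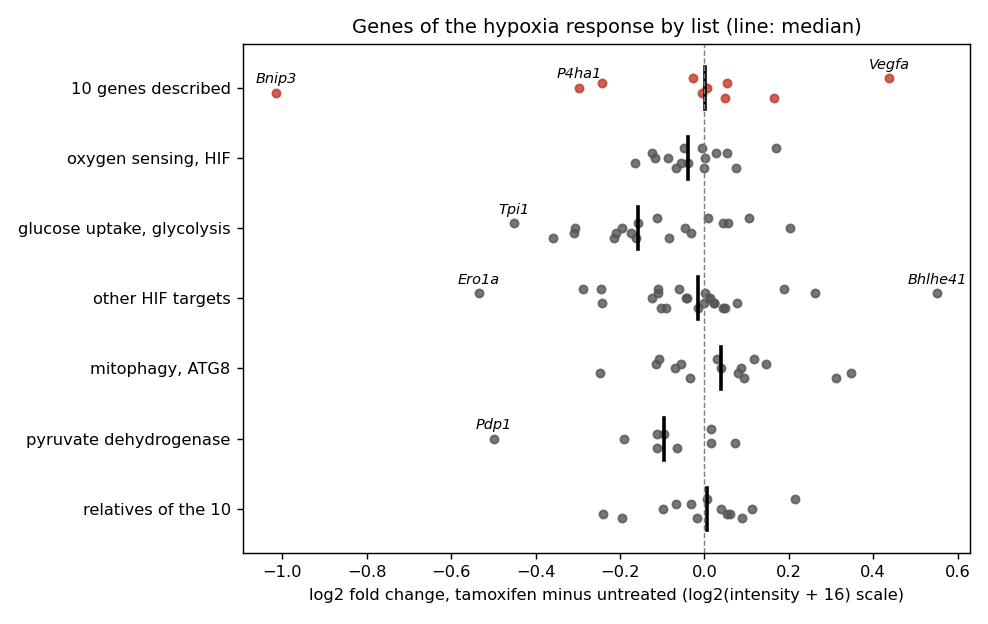
Log2 fold change (tamoxifen minus untreated) of every measured gene of the set (red) and of 6 lists around it (grey), with a black line at each median. Medians lie between -0.16 for glucose uptake and glycolysis and 0.04 for mitophagy, and Bnip3 at -1.01 is below every gene of the other lists.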

How the data were processed

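Gene expression was measured on gene-level microarrays in 3 tamoxifen and 3 untreated samples. RNA was extracted with TRIZOL and RNeasy columns and made into biotinylated cRNA with a NuGen kit, per the labels' protocols. The authors deposited linear intensity values, already summarised to 1 per probe set and array. Their background correction, normalization and genome build are not given in the sources used here. Intensities were converted to log2(value + 16), which understates changes of dim genes, quantile normalised, and fitted with limma 3.58.1 in R 4.3.3 (two-sided, Benjamini-Hochberg over 34760 probe sets, threshold 0.05). Printed intensities are the deposited ones. The platform table gave 1 symbol for 21640 probe sets, several for 1321 and did not list 11799. Groups came from sample titles. The genes, lists, and rule for named genes were chosen with earlier results of these data known. The rule names the 10 genes, Foxo1, up to 3 genes at or above the median probe set with the largest absolute fold change in each list, besides any call, and the 5 genes nearest to Bnip3. Hif1a, Pgf, Vegfd and the pro-B markers Cd79a, Igll1 and Vpreb1 were added after their values were seen. Listed genes without a single-symbol probe set were not analysed here. The fit was tested on simulated data: with 200 of 34760 simulated probe sets changed, 37.5% were recovered at 1.5-fold, 89.8% at 2-fold, and at 4-fold 99.2%. The changed probe sets were all at or above the median. Noise was independent and normal at the fitted spread, with no differences between arrays, and 200 changes exceed the 20 called here. These shares hold for that setting and may overstate what the real arrays recover. Bnip3, near 2-fold, was not called. Figures were drawn with matplotlib 3.10.9.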

Additional observations from a re-analysis of the deposited data

How the results depend on the processing

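Across the 14 alternatives Bnip3 stayed negative (-1.15 to -0.88), as did P4ha1 (-0.38 to -0.19) and Pdk1 (-0.44 to -0.07), and Vegfa stayed positive (0.29 to 0.55), as did Kdm3a (0.03 to 0.31) and Egln1 (0.02 to 0.09). With 1 array left out Bnip3 ran over the same range, with limma adjusted p of 0.201 to 0.774. The count of the 10 genes called was 0 in all alternatives but 1: with probe sets averaged per gene it was 1 (Bnip3), as was the count over the 6 lists (1, Bhlhe41). That fit tests fewer features. The genes near 0 changed sign. Bnip3l was at -0.0084 under cyclic loess and at -0.0926 with probe sets averaged, Ndrg1 at 0.00612 under cyclic loess. With 1 array left out Bnip3l ran from -0.182 to 0.157, Egln3 from -0.121 to 0.0413, Ankrd37 from -0.0109 to 0.146 and Ndrg1 from -0.0337 to 0.0261. The median of the 10 ran from -0.02 to 0.03. Over all probe sets limma called 20, but 46 without dim probe sets, 12 with no further normalization, 3 with a common median, 11 with a pseudocount of 1 and 0 to 6 with 1 array left out, with at least 1360 at an unadjusted p under 0.05 in each of the latter. Under a replicate block 0 probe sets were called by limma (2525 at an unadjusted p under 0.05), and Bnip3 had an adjusted p = 0.272. The same block gave Vegfa an SE of 0.07 in place of 0.16, with a limma adjusted p = 0.246. Deviations of same-numbered samples correlated at 0.256, 0.0547 and 0.302, and those of differently numbered samples at -0.42 to 0.248. The titles only number the samples, so the main fit did not pair them, and whether the numbers mark pairs remains undecided.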

Other observations

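Probe sets of a gene did not always run alike among the genes around Bnip3, which touches the lists only through the brightest of them. Hk1, a hexokinase, had a bright probe set at 5669, 5084 and 4683 in tamoxifen samples, against 4433, 5058 and 4823 in untreated samples, a log2 fold change of 0.10 ± 0.08 (SE). Its dim probe set measured 154, 127 and 142 in tamoxifen samples, against 173, 171 and 151 in untreated samples, which gave -0.21 ± 0.10 (SE). Map1lc3b, an ATG8 protein of the autophagosome, had 846, 719 and 751 in tamoxifen samples, against 827, 678 and 609 in untreated samples. A dimmer probe set of Map1lc3b measured 261, 173 and 53.8 after tamoxifen, against 184, 196 and 202 in untreated samples, so tamoxifen sample 3 lay far below the other 5. The 3 probe sets of Mif, a cytokine, gave like values of -0.24, -0.21 and -0.32.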
